A study of Mus musculus with 6 samples.

Results

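The genes described here encode the precursors of 8 neuropeptides: Sst (somatostatin), Cartpt (CART), Pnoc (nociceptin), Npy (neuropeptide Y), Nts (neurotensin), Tac1 (substance P and neurokinin A), Gal (galanin) and Calca (calcitonin and CGRP). They were taken by symbol, and each of the 8 had 1 row among the 31053 genes of all 6 libraries. The libraries hold single cells from embryoid bodies, aggregates of differentiating cells, taken on day 6 of a motor neuron protocol. The embryonic stem cells are of the mouse HB9::GFP line, whose GFP reporter is driven by the promoter of the motor neuron gene Hb9 (Mnx1). There were 2 libraries of wild-type cells (WT), 2 labelled lncMN2_SP-/- (DeltaSP) and 2 labelled lncMN2-/- (KO). The reporter was common to the 3 genotypes, and the DeltaSP and KO cells were made with CRISPR/Cas9. Per the design text each condition was represented by 2 clones, so a replicate stands for a clone, and clone, culture and library cannot be told apart within it. The labels do not tie number 1 of one genotype to number 1 of another.

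Neuropeptides are made as longer precursors that pass through the secretory pathway, are cut at basic residues by prohormone convertases, trimmed by carboxypeptidase E and often amidated by Pam, and are stored in dense core vesicles until release. They act on G protein-coupled receptors. In the spinal cord somatostatin, nociceptin, neuropeptide Y, neurotensin and substance P are known from dorsal horn interneurons and sensory circuits, CGRP from somatic motor neurons, and CART and galanin from autonomic neurons. Several peptide genes are classical targets of CREB, which binds the palindrome TGACGTCA.

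The promoters of Sst and Cartpt are shown because these were the members with the most UMIs (unique molecular identifiers, each a counted mRNA molecule) and the only 2 of the 7 members matched in the RefSeq promoter table (assembly GRCm38.p6) that hold this palindrome between 250 bases before and 50 bases after the start. Each line gives the 150 bases before the RefSeq start, 5′ to 3′ on the gene's strand, with the palindrome in capitals. The Sst stretch is chr16:23890845-23890994 on the minus strand, and its palindrome begins 48 bases before the start. The Cartpt stretch is chr13:99900684-99900833 on the minus strand, and its palindrome begins 112 bases before the start. Both RefSeq starts lie inside the gene spans given below, whose 5′ ends are at 23890958 for Sst and 99901091 for Cartpt. All of the Cartpt stretch and most of the Sst stretch thus lie within those spans.
Sst: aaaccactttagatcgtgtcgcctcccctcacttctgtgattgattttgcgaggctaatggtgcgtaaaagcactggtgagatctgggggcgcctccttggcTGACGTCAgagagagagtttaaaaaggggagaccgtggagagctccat
Cartpt: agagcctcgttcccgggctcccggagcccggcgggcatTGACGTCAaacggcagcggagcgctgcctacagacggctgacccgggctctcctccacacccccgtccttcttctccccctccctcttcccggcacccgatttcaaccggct
Of all 32851 promoter windows searched on both strands, 1.79% held TGACGTCA. The shorter core TGACG, which overlaps the palindrome, was in 20.8%, the TATA box TATAAA in 13.6% and the AP-1 motif TGACTCA in 5.2%. These are matches of letters and not measured binding.

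The 6 libraries held 24215 barcodes and between 24191242 and 49061693 UMIs each. After removal of barcodes under 1000 genes or over 10% mitochondrial UMIs, 16225 cells remained, 1612 to 4499 per library, with a median of 4157 UMIs per cell in WT 1 and 11898.5 to 15112 in the other 5. WT 1 stands apart: it filled cluster 5 (1137 of 1180 cells), cluster 6 (980 of 1112) and cluster 10 (551 of 617), and gave 14 of the 1080 cells of cluster 7. Doublets were not removed, and 38 barcode sequences of kept cells occurred in more than 1 library. The targeted transcript 5330434G04Rik was at 37.4 and 34.8 CPM (UMIs per 1000000 UMIs) in WT, 22.4 and 23.3 in DeltaSP and 0.124 and 0.170 in KO, and KO was lower than WT by edgeR's quasi-likelihood test (adjusted p = 3.14e-05). These 3′ tags do not check the DeltaSP edit. Of 16 clusters, 7 carried motor neuron, visceral motor neuron, interneuron or pan-neuronal markers and are called neuron-like (5643 cells). Another 5189 cells were progenitor-like (clusters 0 and 5 with neural progenitor markers, cluster 3 with p3 or floor plate markers). No cluster was named motor neuron progenitor, and the committing precursor cluster 2, with Olig2 among its leading genes, is in neither class. Cluster 10 had too few markers for a name and is in neither class, though its Isl1 mean was 649 ± 135 CPM (SD, n = 2). With finer clusters (resolution 1.2) WT 1 gave 684 of the 689 cells of 1 motor neuron-like cluster. The neuron-like share of WT 1 thus depends on the naming.

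Sst had 37266 UMIs in kept cells, and 97.1% of them lay in neuron-like cells. The gene (ENSMUSG00000004366, protein-coding, mm10, GENCODE M21, chr16:23889573-23890958) encodes an inhibitory peptide of hypothalamus, gut and interneurons. It was highest in the pan-neuronal clusters 7 and 6, of which cluster 7 was led by the neuronal filament genes Prph, Nefl and Nefm and the synuclein gene Sncg. Its mean level was 1022 ± 283 CPM in cluster 7 (SD over 5 libraries with at least 20 cells there) and 741 ± 215 CPM in cluster 6 (n = 4), and these ranges overlap. The mean of cluster 6 holds no KO library, and that of cluster 7 leaves out WT 1. The interneuron-like cluster 9 followed with 230 ± 149 CPM (n = 6), and the motor neuron-like clusters 8 and 4 had 46.5 and 17.5 CPM. The name pan-neuronal does not exclude motor neurons. Of all clusters, cluster 7 had the highest means of the cholinergic genes Chat, Slc18a3 and Slc5a7. Slc18a3 was at 615 ± 38.7 CPM (n = 5) in cluster 7 and 543 ± 47.1 CPM (n = 5) in cluster 4. Chat differed between these clusters by less than either SD. The motor neuron factors Mnx1, Lhx3, Lhx4 and Isl2 had their highest means in clusters 8 and 4. In cluster 7, 66.9% of cells had at least 3 Sst UMIs. In cluster 7 the libraries with at least 20 cells held 1178 CPM (WT 2), 1217 and 1258 CPM (DeltaSP 1 and 2), and 854 and 605 CPM (KO 1 and 2), so both KO libraries lay below the other 3. How many of all genes had such an order was not counted within clusters or progenitor-like cells, here and below.

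Single Sst UMIs were also counted outside neurons: 9.15% of progenitor-like cells had at least 1, against 33.9% of neuron-like cells, at median depths of 11364 and 9337 UMIs. Only 5 of the 5189 progenitor-like cells had 3 or more. The Sst level in progenitor-like cells was 21.9, 10.2, 11.3, 7.91, 4.46 and 2.09 CPM in WT 1, WT 2, DeltaSP 1, DeltaSP 2, KO 1 and KO 2, and the KO libraries were the lowest here too. A share of cells with 1 Sst UMI at or below that of progenitor-like cells is read as background. A cell is therefore called positive for a member from 3 UMIs upwards.

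Cartpt (ENSMUSG00000021647, chr13:99898489-99901091, minus strand), which encodes the CART peptide of hypothalamic, visceral and sensory pathways, had 13481 UMIs, 96.9% of them in neuron-like cells. Its highest mean was in the interneuron-like cluster 9 at 608 ± 391 CPM (n = 6). The libraries of cluster 9 ran from 221 CPM in WT 1 over 232 in KO 2, 358 in KO 1, 786 in DeltaSP 1 and 901 in DeltaSP 2 to 1151 in WT 2, so WT spanned the whole range. Cluster 6 had 353 ± 429 CPM (n = 4, without KO) and ran from 56.2 to 987 CPM. Cluster 7 had 246 ± 59.1 CPM (n = 5) and the visceral motor neuron-like cluster 12, marked by Phox2a and Tbx20, 123 ± 86.9 CPM (n = 5). Clusters 9, 6 and 7 lie within the larger SD of each neighbouring pair, and clusters 7 and 12 differ by more than either SD. At resolution 1.2 the highest Cartpt mean, 908 CPM, was in a cluster that carried too few markers for a name.

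Pnoc (ENSMUSG00000045731, chr14:65400673-65425472, minus strand) encodes nociceptin, an opioid-related peptide that acts on Oprl1. Its mean was highest in the interneuron-like cluster 15, marked by Tal1, Gata3, Gata2 and Slc32a1, with 252 ± 111 CPM (n = 4). The interneuron-like cluster 9, marked by Foxd3, Lhx1 and En1, had 108 ± 32.8 CPM (n = 6) and, with more cells, 52.3% of its UMIs against 30.9% in cluster 15. With finer clusters (resolution 1.2) the highest Pnoc mean, 453 CPM, was in another interneuron-like cluster, marked by Foxd3, Lhx1 and En1. In the pan-neuronal clusters lay 8.42% of its 1555 UMIs, against 89.2% of those of Sst. The libraries of cluster 15 held 140 and 247 CPM in WT, 267 and 202 CPM in DeltaSP and 253 and 400 CPM in KO. Both KO libraries lay above WT, and DeltaSP overlapped both. The nearest values of KO and WT, 253 and 247 CPM, come from the smallest numbers of cells, 19 in KO 1 and 9 in WT 2.

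Gal (ENSMUSG00000024907, chr19:3409915-3414544, minus strand) encodes galanin, a peptide of hypothalamic and autonomic neurons. Its mean was highest in the visceral motor neuron-like cluster 12, at 107 ± 76.0 CPM (n = 5), where 23.3% of cells had at least 3 UMIs. Clusters 9 and 7 had 46.2 ± 26.4 and 40.1 ± 11.1 CPM, within the spread of cluster 12. In cluster 12 the level was 37.3 and 56.2 CPM in WT, 225 and 160 CPM in DeltaSP and 214 and 69.7 CPM in KO, so both WT libraries were the lowest. The share of all genes with such an order in cluster 12 was not counted. WT 1 had only 20 cells there. The 225 CPM of DeltaSP 1 come from 18 cells, under the 20 needed for the mean.

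Calca and Npy were exceptions among these neuronal genes. Of the 2295 Calca UMIs 60% lay in progenitor-like and 11.2% in neuron-like cells. Calca (ENSMUSG00000030669, chr7:114631478-114636357, minus strand), whose transcripts encode calcitonin or, by alternative splicing, CGRP, was highest in the p3 or floor plate-like cluster 3, marked by Shh, Spon1 and Foxa2, with 46.7 ± 22.8 CPM (n = 6). All 6 libraries had it there: 85.5 and 59.9 CPM in WT, 44.3 and 29.1 CPM in DeltaSP and 37.7 and 23.9 CPM in KO, so both WT libraries were the highest. The share of all genes with such an order in cluster 3 was not counted. Over all cells 59.3% of genes tested did not overlap between KO and WT. In the unnamed cluster 1, led by immediate early genes such as Junb and Egr1, it had 20.8 ± 4.84 CPM. The 3′ counts do not tell the calcitonin and CGRP forms apart.

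Of the 384 Npy UMIs 56.3% were in progenitor-like and 13.5% in neuron-like cells. Npy (ENSMUSG00000029819, chr6:49822710-49829507, plus strand), a peptide of sympathetic and hypothalamic neurons, did not pass 5.11 CPM in any cluster mean. Clusters 0, 5 and 3, all progenitor-like, had its highest means. With finer clusters (resolution 1.2) 1 unnamed cluster led by Ldha and Slc16a3 reached 15.8 CPM. That cluster was mostly of 1 library, with 237 of its 328 cells from KO 2.

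Nts and Tac1 were rare. Nts (ENSMUSG00000019890, chr10:102481756-102490486, minus strand) had 98 UMIs, 96 of them in neuron-like cells, and 10 cells with at least 3. Tac1 (ENSMUSG00000061762, chr6:7554879-7565834, plus strand) had 44 UMIs, 41 of them in neuron-like cells, and 2 cells with at least 3. Tac1 was not found in the 5189 progenitor-like cells, and a count of 0 allows a share of up to 0.0578% of cells with a UMI. By library Tac1 had 6, 3, 10, 4, 12 and 9 UMIs in WT 1 to KO 2. Too few UMIs were counted for a test of Tac1.

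**Figure D1:**
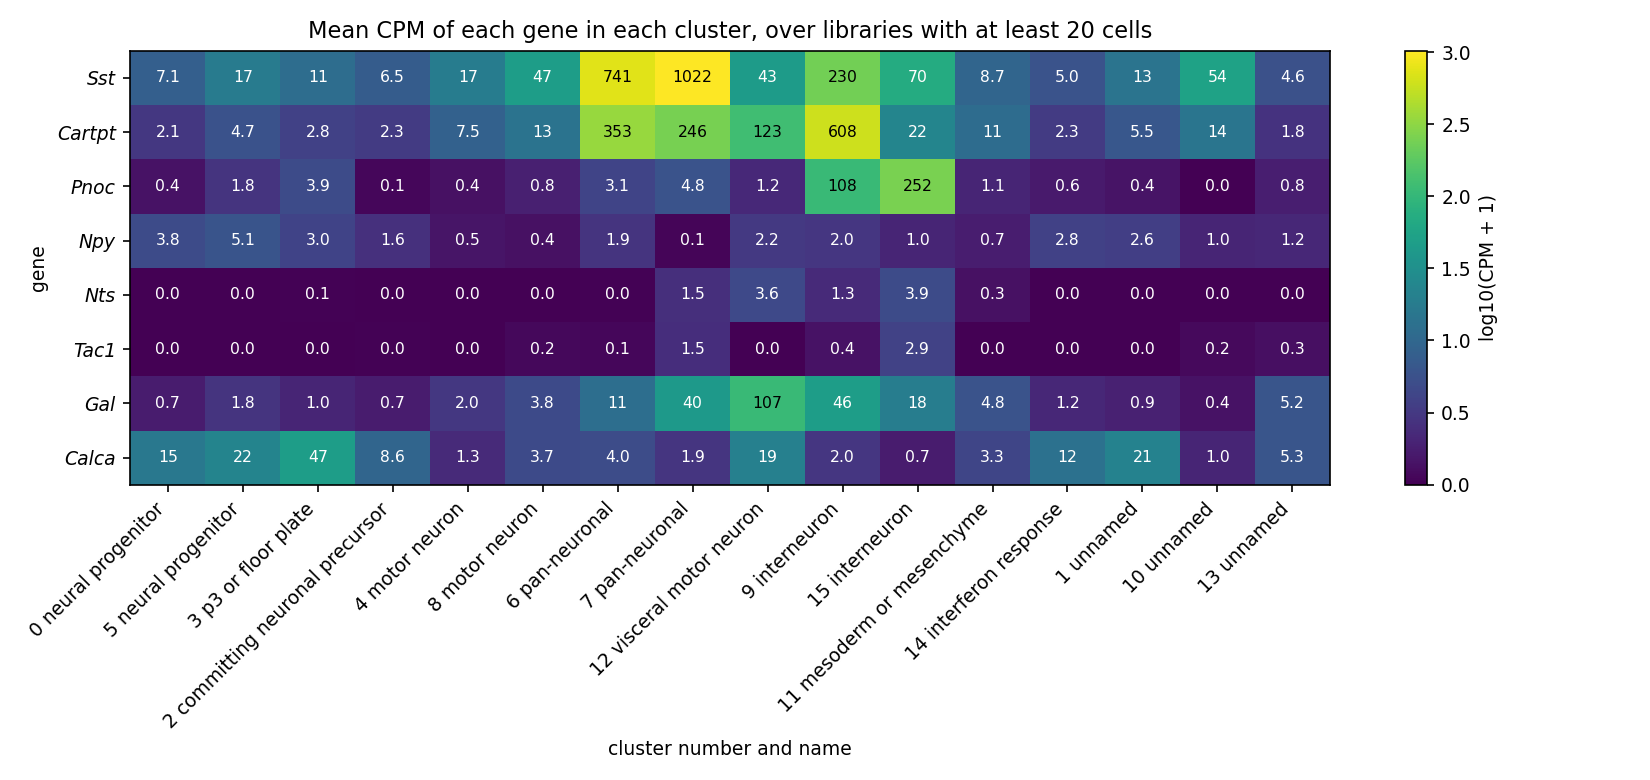
Mean level of each of the 8 peptide precursor genes in each of the 16 clusters, as colour on a log10(CPM + 1) scale with the mean CPM over libraries with at least 20 cells printed in the cell. Higher levels are brighter: Sst is brightest in the pan-neuronal clusters 6 and 7, Cartpt in cluster 9, Pnoc in cluster 15, Gal in cluster 12 and Calca in cluster 3.

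Within these clusters the members were held by few cells at high level. Of the 16225 kept cells, 181 held 50% of all Sst UMIs and 103 held 50% of all Cartpt UMIs. The corresponding numbers were 125 cells for Gal, 51 for Pnoc and 8 for Nts. For Calca, a gene of fewer UMIs, it was 239 cells. The highest single cells had 376 Cartpt, 276 Sst, 70 Gal and 43 Pnoc UMIs, against 22 for Calca and 14 for Npy. Cells with at least 3 UMIs numbered 1201 for Sst, 693 for Cartpt, 248 for Gal, 188 for Calca and 146 for Pnoc.

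Cells positive for 1 of the 4 neuronal members were set against the other neuron-like cells of the same library for 40 fixed transmitter and class genes, as a description with no test. Positive cells per library numbered 90 to 310 for Sst, 71 to 162 for Cartpt, 15 to 35 for Pnoc and 7 to 80 for Gal. The 7 Gal cells were those of the shallow WT 1, and each library counts equally in the means. Pnoc cells had an inhibitory interneuron profile. Slc32a1, the vesicular GABA transporter, was at 157 CPM in them and 5.70 CPM in the others (27.5-fold), as means of 6 libraries. En1, a V1 interneuron factor, was at 135 ± 34.8 and 5.06 ± 3.13 CPM (SD, n = 6; 26.6-fold), and Lhx5 at 126 ± 62.5 and 6.10 ± 3.31 CPM (20.6-fold), each higher in 6 of 6 libraries. Gad2, which makes GABA, was at 73.8 against 4.29 CPM, Slc6a5, the neuronal glycine transporter, at 55.6 against 3.58 CPM, Gata3 at 91.8 against 4.76 CPM, and Pax2 at 48.5 against 3.52 CPM. The motor neuron genes Mnx1 (35.9 against 250 CPM) and Chat (17.1 against 73.8 CPM) were low in Pnoc cells.

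Sst cells had a different profile. Slc5a7, the high-affinity choline transporter, was at 21.0 ± 11.8 CPM in them and 5.67 ± 2.29 CPM in the other neuron-like cells (SD, n = 6; 3.70-fold, higher in 6 of 6 libraries). Th, the rate-limiting enzyme of catecholamine synthesis, was at 102 ± 37.1 and 33.4 ± 9.38 CPM (3.07-fold, 6 of 6). Isl1 (654 against 438 CPM) and Slc18a3 (534 against 412 CPM) were also higher in 6 of 6 libraries, but by less than 2-fold. The cholinergic gene Chat was at 81.1 against 68.0 CPM, higher in only 4 of 6 libraries. Ddc, which makes dopamine from its precursor, did not follow Th: it was at 51.3 against 57.3 CPM, lower in 5 of 6. Lower in Sst cells were Lhx3 (24.1 against 160 CPM), Lhx4 (59.3 against 195 CPM) and Mnx1 (141 against 292 CPM), factors of young somatic motor neurons. The inhibitory genes Gad1, Gad2, Slc32a1, Gata2, Gata3 and Tal1 were also at least 2-fold lower by their means in Sst cells, with 6 of 6 libraries in this direction. The Sst and Pnoc cells thus lay on opposite sides for these inhibitory genes.

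Cartpt cells shared with Sst cells the higher Slc5a7 (20.4 against 7.71 CPM) and Th (93 against 46.3 CPM) and the lower Lhx3 (40.5 against 135 CPM) and Mnx1 (115 against 276 CPM). They also had more Slc17a6, the vesicular glutamate transporter of spinal excitatory neurons (5.39 against 0.993 CPM, higher in 6 of 6 libraries). Gal cells had 22.1 CPM of Tbx20, a visceral motor neuron factor, against 7.06 CPM in the others, in the same direction in 5 of 6 libraries. Lhx3 was lower in Gal cells (38.5 against 123 CPM). Cells positive for Sst, Cartpt and Gal were deeper than the others in 6 of 6 libraries: in KO 2 the medians were 22549.5 against 11935.5 UMIs for Sst, 21865 against 12496 for Cartpt and 24949 against 12824 for Gal. Pnoc cells had 12903 against 13092.5. The part of depth in these profiles was not tested.

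**Figure D2:**
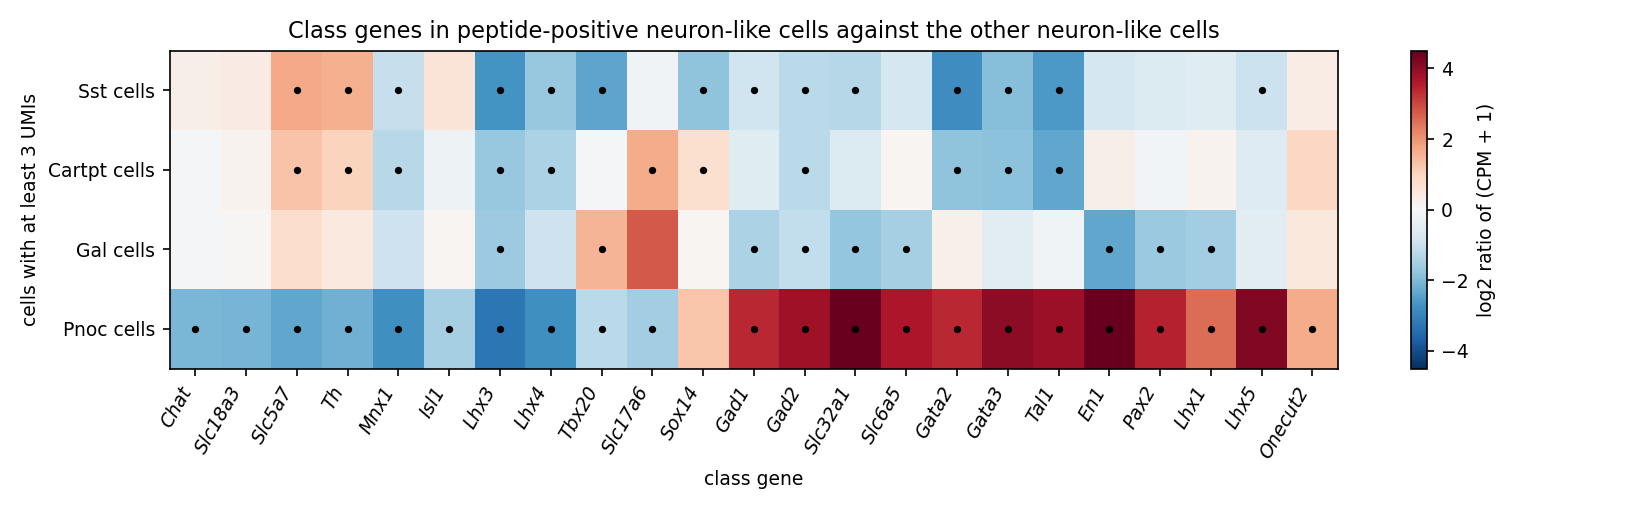
Transmitter and class genes in neuron-like cells with at least 3 UMIs of Sst, Cartpt, Gal or Pnoc, as the log2 ratio of mean (CPM + 1) to the other neuron-like cells. Dots mark genes at least 2-fold apart with 5 or more of 6 libraries in 1 direction, and the inhibitory genes are high in the row of Pnoc cells and low in the row of Sst cells.

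Sst, Cartpt and Gal were found in the same cells more often than their separate shares give. In neuron-like cells 398 cells had at least 3 UMIs of both Sst and Cartpt, against 151 from the product of the shares in each library (ratio 2.63), and the count was above that number in 6 of 6 libraries. Cartpt and Gal met in 86 cells against 35.1 (6 of 6 libraries), and Sst and Gal in 117 against 56.7 (5 of 6). Pnoc met Cartpt in 40 cells against 18.9 (6 of 6). Sst and Pnoc met in 23 cells against 30.6, fewer in 5 of 6 libraries, but from 1 UMI upwards in 130 cells against 111, more in 5 of 6, so this direction turns with the minimum. Pnoc and Gal met in 5 cells against 7.47, and from 1 UMI upwards in 65 against 47.2, so this direction turns too. The separate shares are taken over all neuron-like cells of a library, which mix 7 clusters. In cluster 7, 66.9% of cells were positive for Sst, 30.8% for Cartpt and 10.6% for Gal. Depth also differs between cells, and doublets were not removed. The part of shared clusters, depth and doublets in these counts was not tested.

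**Figure D3:**
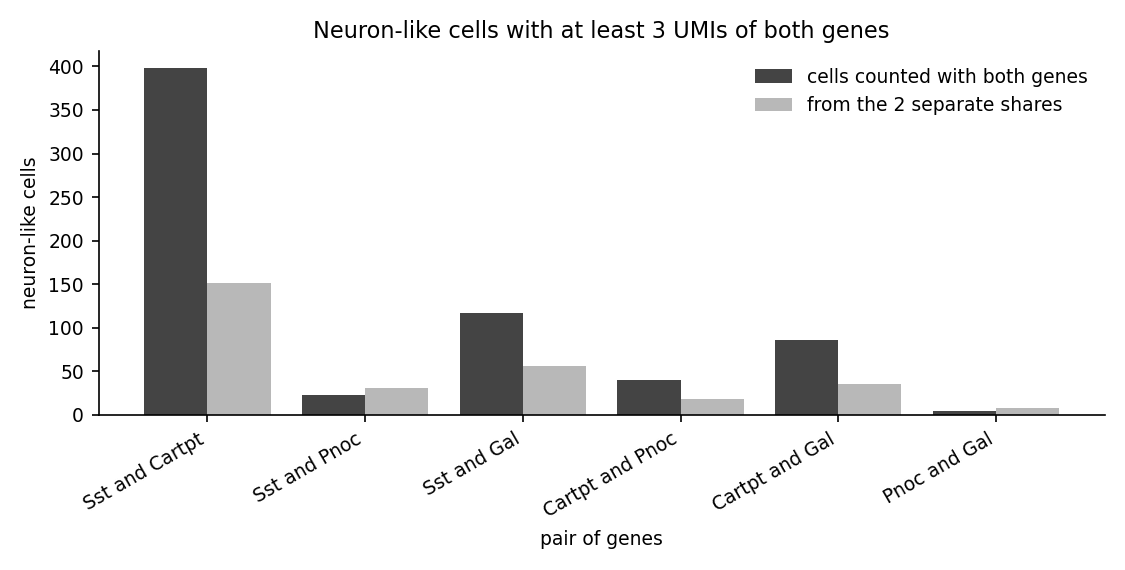
Number of neuron-like cells with at least 3 UMIs of both genes of a pair, beside the number that the 2 separate shares give per library, summed over 6 libraries. The bars for Sst with Cartpt show the widest gap, 398 against 151 cells, and Sst with Pnoc lies below its number with 23 against 30.6, a direction that turns (130 against 111) when 1 UMI is enough.

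The genes whose levels followed each member most closely were found over 60 sums of 1 cluster in 1 library, as Pearson correlations of log2(CPM + 1). These sums share libraries and cell types, so the values are descriptions. Sst was nearest to the synuclein gene Sncg (r = 0.895), the splicing factor gene Rbfox1 (0.890) and the protocadherin gene Pcdh9 (0.888). Cartpt was nearest to Onecut3 (0.933), Asic4 (0.933) and Dner (0.925), and Pnoc to Lamp5 (0.919), Hmx2 (0.900) and Adarb2 (0.895). Gal was nearest to Thsd7b (0.921), the sodium channel gene Scn9a (0.898) and Ache (0.886), which encodes acetylcholinesterase. Calca had Rfx4 (0.793), Ctgf (0.774) and Stxbp6 (0.761) as nearest genes. The best value for Npy was 0.591, with Hoxb8.

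Between genotypes, Sst and Cartpt were lower in KO than in WT when all kept cells of a library were summed. Sst was at 308 and 333 CPM in WT 1 and 2, 231 and 194 CPM in DeltaSP, and 112 and 57.0 CPM in KO, with values here and below scaled by TMM (an edgeR scaling of library sizes). The 3 genotypes did not overlap, as was so for 59.3% of all genes tested in KO against WT, 48.1% in DeltaSP against WT and 42% in KO against DeltaSP. Sst fell by 1.92 ± 0.30 on the log2 scale (SE) in KO against WT, with 2 libraries each (edgeR quasi-likelihood test, adjusted p = 0.0271). Cartpt was at 97.1 and 87.2 CPM in WT, 84.0 and 77.4 CPM in DeltaSP, and 48.6 and 35.1 CPM in KO, without overlap, at the same 59.3% over all genes in KO against WT. It fell by 1.14 ± 0.18 (adjusted p = 0.0271). In this comparison 7.52% of the 14900 genes tested passed, in either direction, and 2 of the 7 members tested did.

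The other 5 members tested did not pass in KO against WT. Npy was at 2.38 and 3.60 CPM in WT and 1.87 and 0.483 CPM in KO, a log2 difference of -1.36 ± 0.58 (adjusted p = 0.167). Calca was at 12.1 and 16.6 CPM in WT and 10.4 and 11.5 CPM in KO (-0.39 ± 0.20, adjusted p = 0.240). Gal (9.40 and 12.2 CPM in WT, 17.0 and 8.64 CPM in KO), Pnoc (10.7 and 5.25 against 7.41 and 9.03 CPM) and Nts (0.453 and 0.767 against 1.03 and 0.227 CPM) overlapped between the genotypes. Both calls rest on few clones: without WT 1 the adjusted p of Sst and of Cartpt was 0.0576, and without KO 2 it was 0.225 and 0.263. Without KO 1 that of Cartpt was 0.0750.

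The genotypes also differed in which cells were present. Neuron-like cells made up 42.1% and 43.9% of kept cells in WT, 37.3% and 28.5% in DeltaSP and 28.7% and 26.5% in KO. The pan-neuronal clusters 6 and 7, where Sst was highest, made up 22.1% and 20.1% of cells in WT, 12% and 8.66% in DeltaSP and 7.42% and 6.14% in KO. In sums over all cells, fewer cells of a type and less RNA per cell cannot be told apart.

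**Figure D4:**
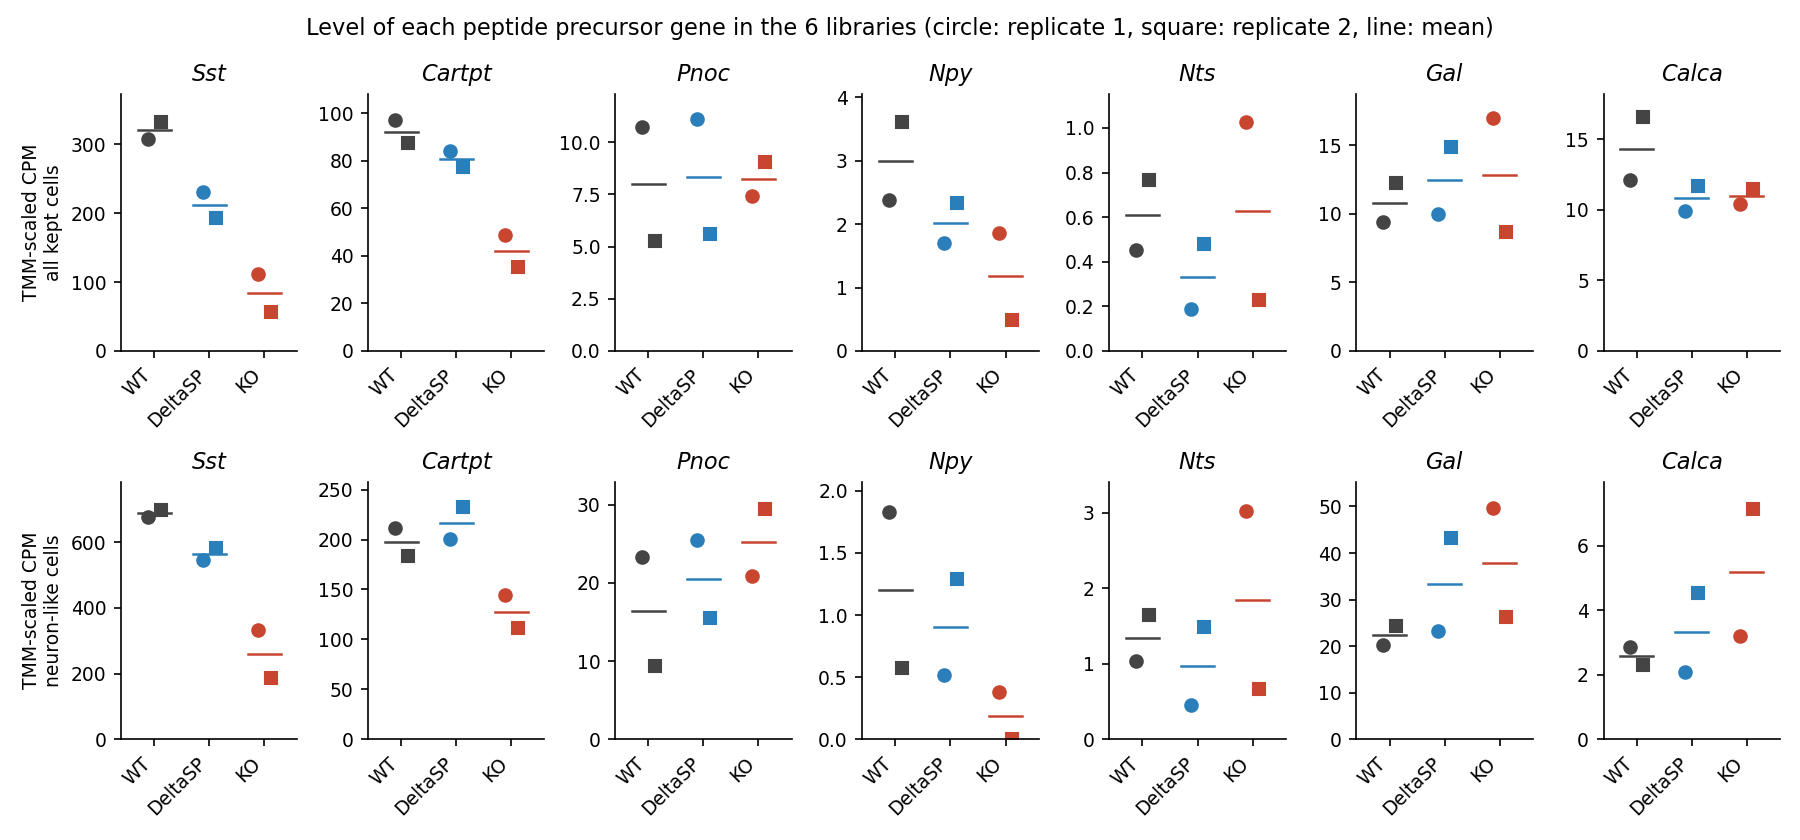
Level of the 7 tested peptide genes in each library, as TMM-scaled CPM, over all kept cells and over neuron-like cells (circle, replicate 1; square, replicate 2; line, mean). Sst runs from 333 CPM in WT 2 to 57.0 CPM in KO 2 over all kept cells, and from 699 to 186 CPM in neuron-like cells.

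Within neuron-like cells the Sst difference was smaller and still passed. Sst was at 675 and 699 CPM in WT, 546 and 583 CPM in DeltaSP, and 332 and 186 CPM in KO, and fell by 1.41 ± 0.26 on the log2 scale in KO against WT (edgeR, adjusted p = 0.0317). The genotypes did not overlap, as was so for 55.1% of all genes tested in KO against WT, 45.1% in DeltaSP against WT and 43.3% in KO against DeltaSP. Of the 12982 genes tested in neuron-like cells 5.12% passed, and of the 7 members 1 did. Cartpt was at 211 and 183 CPM in WT, 201 and 232 CPM in DeltaSP and 144 and 111 CPM in KO, a log2 difference of -0.62 ± 0.18 that did not pass (adjusted p = 0.0820). Sst did not pass without KO 1 (adjusted p = 0.0618), without KO 2 (0.261) or with a looser cell filter (-1.11, 0.126).

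None of the other members passed in neuron-like cells. Gal was at 20.3 and 24.4 CPM in WT and 49.7 and 26.2 CPM in KO (0.76, adjusted p = 0.239), so both KO libraries were above WT. Pnoc was at 23.3 and 9.43 CPM in WT and 20.9 and 29.5 CPM in KO (0.65, adjusted p = 0.369). Npy had 0 UMIs in KO 2, where 3 UMIs are 0.323 CPM, and 1.83 and 0.574 CPM in WT. Calca was at 2.87 and 2.30 CPM in WT and 3.21 and 7.13 CPM in KO (adjusted p = 0.259), and Nts at 1.04 and 1.64 against 3.02 and 0.665 CPM (adjusted p = 0.771).

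Neuron-like cells also held more of the committing precursor markers in KO. The summed level of this marker list was 894 and 845 CPM in WT, 1083 and 1264 CPM in DeltaSP and 1478 and 2008 CPM in KO. The summed pan-neuronal markers were at 16851 and 21930 CPM in WT and 19926 and 19108 CPM in KO, which overlap. The part of precursor-like cells in the Sst difference was not tested.

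Within the pan-neuronal clusters alone, an alternative added after seeing the data, Sst was at 922 and 1162 CPM in WT, 1202 and 1248 CPM in DeltaSP and 854 and 602 CPM in KO, as CPM of those cells. The log2 difference of KO against WT was -0.74 ± 0.24 and did not pass (edgeR, adjusted p = 0.125). Cartpt was at 231 and 181 CPM in WT, 257 and 292 CPM in DeltaSP and 241 and 286 CPM in KO there, with a log2 difference of 0.11 ± 0.20 (adjusted p = 0.812). The KO libraries were the lowest for Sst inside these clusters, and for Cartpt they lay among the others. Gal was at 16.7 and 27.4 CPM in WT, 31.6 and 42.0 CPM in DeltaSP and 56.7 and 40.6 CPM in KO, 0.92 ± 0.29 on the log2 scale (adjusted p = 0.114). The libraries fill these clusters unequally: WT 1 gave 980 cells to cluster 6 and 14 to cluster 7, KO 1 gave 6 and 152, and KO 2 gave 9 and 120. WT 1 and the KO libraries thus stand mostly for different clusters, and the part of this in the differences was not tested.

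The share of neuron-like cells with at least 3 Sst UMIs was 16.4% in WT 1 (exact 95% binomial interval 14.7% to 18.1%), 31.5% in WT 2 (28.1% to 35.1%), 23.3% and 23.1% in DeltaSP, and 21.8% (18.6% to 25.3%) and 16.2% (13.2% to 19.5%) in KO. The intervals cover counting error only. WT 1, the shallow library, had the low WT share. With each cell thinned to 3000 UMIs, the share with at least 1 Sst UMI was 29.9% and 31.0% in WT, 23.2% and 23.4% in DeltaSP and 20.3% and 14.8% in KO, and the genotypes did not overlap. For thinned shares this was not counted over all genes. For levels in neuron-like cells 55.1% of genes did not overlap in KO against WT, 45.1% in DeltaSP against WT and 43.3% in KO against DeltaSP. After thinning, the share in progenitor-like cells, taken as background, was 5.97% and 4.51% in WT, 3.68% and 2.49% in DeltaSP and 1.03% and 1.03% in KO. This background differs between genotypes in the same direction, and its part in the thinned shares was not tested. Thinning left out 1499 kept cells that were too shallow. Unthinned, the share was 39.1% in WT and 27.9% in KO, a difference of -11.2 points (exact permutation test, two-sided, p = 0.667). With 2 libraries against 2 the smallest p such a test can give is 0.33. In the pan-neuronal clusters the thinned shares were 41.1% and 58.4% in WT, 57.0% and 60.1% in DeltaSP and 60.4% and 52.9% in KO, which overlap.

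**Figure D5:**
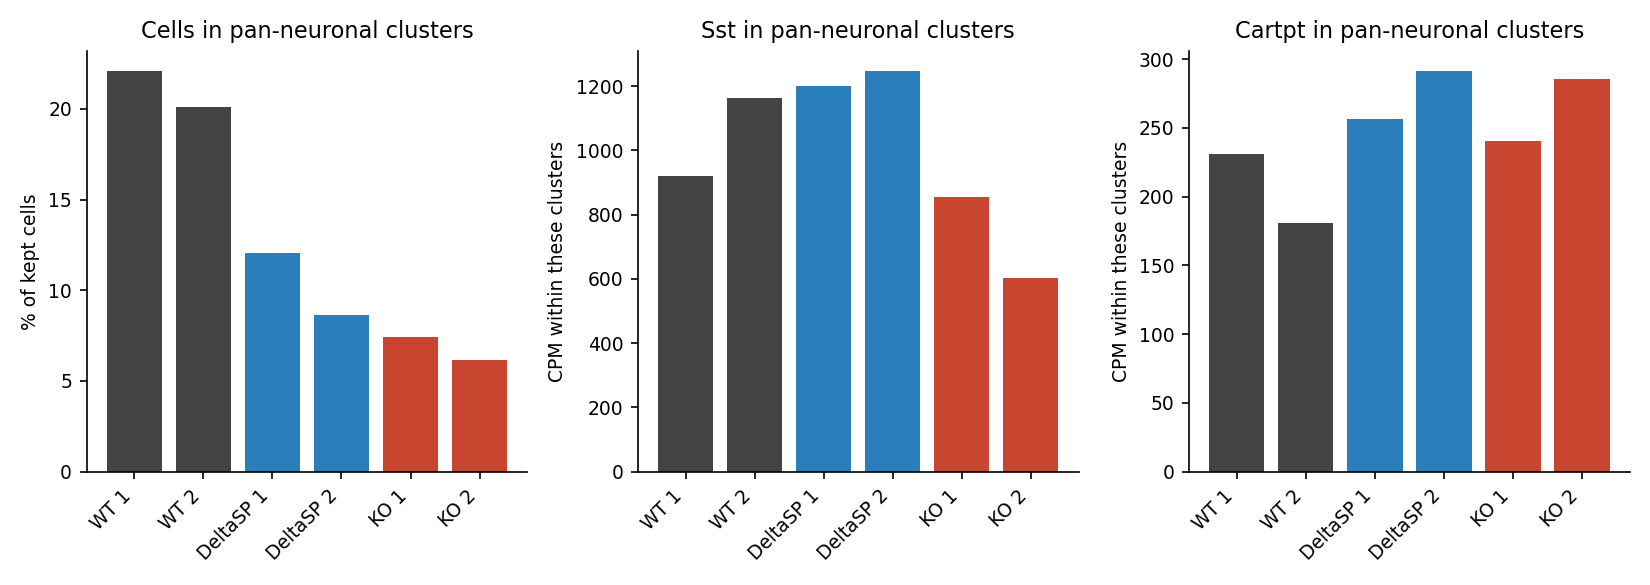
Share of kept cells in the pan-neuronal clusters 6 and 7, and Sst and Cartpt levels (CPM) in these cells, as 1 bar per library. The share falls from 22.1% in WT 1 to 6.14% in KO 2, while Cartpt lies between 181 and 292 CPM in all 6 libraries. The WT 1 cells are mostly of cluster 6, and those of the other libraries mostly of cluster 7.

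DeltaSP against WT showed no member past the threshold. Of all genes tested 0.356% passed over all cells and 0.0308% in neuron-like cells. Over all cells Sst differed by -0.59 ± 0.29 (edgeR, adjusted p = 0.342) and Cartpt by -0.19 (adjusted p = 0.595), and 0 of 7 members had an unadjusted p under 0.05 or were called by DESeq2, in neuron-like cells as well. In KO against DeltaSP 0.00671% of genes passed over all cells and 0.00770% in neuron-like cells, which is 1 gene each, and no member passed with edgeR. Over all cells Sst differed by -1.33 ± 0.30 (adjusted p = 0.844, unadjusted 0.0026) and Cartpt by -0.95 ± 0.18 (adjusted p = 0.844, unadjusted 0.00092), while DESeq2 called both with an adjusted p of 0.00786. In neuron-like cells 2 members had an unadjusted p under 0.05, and DESeq2 called 1, Sst (adjusted p = 0.00876). The KO libraries were below the DeltaSP libraries for both genes.

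Genes that process and store peptides were counted from a list of 28, all of which were tested over all cells. In KO against WT 6 of the 28 fell and 1 rose, with a median log2 difference of -0.37 against 0.00 over all genes tested, of which 7.52% passed. Ptprn, a dense core vesicle membrane protein, was at 16.2 and 19.0 CPM in WT and 4.95 and 5.62 CPM in KO (-1.73 ± 0.22, edgeR, adjusted p = 0.0232). Pcsk1n, the inhibitor of prohormone convertase PC1, was at 213 and 262 against 76.8 and 76.6 CPM (-1.63 ± 0.31, adjusted p = 0.0340). Cadps, a priming factor of dense core vesicle release, was at 52.5 and 40.4 against 21.1 and 16.8 CPM (-1.29, adjusted p = 0.0340), and the granin Chgb at 42.9 and 50.2 against 24.8 and 21.8 CPM (-1.0, adjusted p = 0.0358). Chosen after its values were seen, Cpd, a carboxypeptidase of the trans-Golgi network in many cell types, was the gene that rose, from 27.2 and 24.0 to 39.5 and 38.0 CPM (adjusted p = 0.0496). These calls rest on few clones too: without KO 2, 4 genes in all passed over all cells and 3 in neuron-like cells.

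In neuron-like cells 4 of 26 tested processing genes fell and none rose in KO against WT, with 5.12% of all genes passing: Ptprn (-1.22, edgeR, adjusted p = 0.0243), the convertase gene Pcsk2 (-0.82, adjusted p = 0.0404), Pcsk1n (-1.14, adjusted p = 0.0428) and Cadps (-0.88, adjusted p = 0.0442). Of the 28 and 26 genes, 0 passed in DeltaSP against WT (9 and 6 with an unadjusted p under 0.05, 1 and 1 by DESeq2) and 0 in KO against DeltaSP (4 and 4 unadjusted, 0 and 0 by DESeq2).

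Of the 26 receptor genes of the members 18 had under 100 UMIs in all kept cells, and 10 were tested. None passed in KO against WT over all cells (2 with an unadjusted p under 0.05, and 2 by DESeq2). Oprl1, the nociceptin receptor, differed by -1.02 (edgeR, adjusted p = 0.0830), and Ramp2, which sets the ligand choice of the calcitonin receptor family, by 0.84 (adjusted p = 0.0648). Oprl1 was highest in cluster 15 at 42.6 ± 17.3 CPM (n = 4), the cluster where the mean of its ligand gene Pnoc was highest at this resolution but not at resolution 1.2. Sstr2, a somatostatin receptor, was highest in cluster 9 at 88.1 ± 63.3 CPM (n = 6), where Sst was at 230 CPM. Tacr1, the receptor of substance P, had 90.9% of its 628 UMIs in progenitor-like cells and was highest in cluster 3 at 31.6 ± 10.6 CPM, while its ligand gene Tac1 had 0 UMIs in progenitor-like cells. Of the peptide-degrading enzymes 9 were tested over all cells and 0 passed (2 with an unadjusted p under 0.05, 0 by DESeq2), among them Anpep at 2.27 (adjusted p = 0.0720) and Thop1 at 0.42 (adjusted p = 0.0866). In neuron-like cells 0 of 7 receptors passed in KO against WT (3 unadjusted, 1 by DESeq2) and 0 of 6 enzymes (1 unadjusted, 0 by DESeq2). In DeltaSP against WT and in KO against DeltaSP 0 receptors, enzymes and other precursors passed in either cell set (over all cells 1, 1 and 5 unadjusted and 0, 0 and 1 by DESeq2 in the first, and 0, 0 and 2 unadjusted and 0 by DESeq2 in the second).

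Of 49 other peptide precursor genes 18 had enough UMIs to be tested over all cells, and 2 of them fell in KO against WT, near the 7.52% of all genes that passed. Sct, which encodes secretin, was at 26.1 and 28.2 CPM in WT and 9.24 and 6.11 CPM in KO (-1.82 ± 0.26, edgeR, adjusted p = 0.0259). Grp, which encodes gastrin-releasing peptide, was under 1 CPM (-2.54 ± 0.57, adjusted p = 0.0452). In neuron-like cells 0 of 10 passed (2 with an unadjusted p under 0.05, 1 by DESeq2), with Sct at -0.90 (adjusted p = 0.0977). Among the transmitter and class genes 1 rose and 1 fell of 38 over all cells, no more than the 7.52% of all genes. Ddc, which makes dopamine and serotonin from their precursors, was at 63.3 and 96.2 CPM in WT and 154 and 212 CPM in KO (1.2 ± 0.24, adjusted p = 0.0374). Chat, which makes acetylcholine, was at 38.5 and 38.3 CPM in WT and 23.2 and 22.7 CPM in KO (-0.74, adjusted p = 0.0473). Within neuron-like cells 2 rose and 1 fell of 35, with 5.12% of all genes passing. Ddc rose by 1.28 (adjusted p = 0.0269) and the interneuron factor Lhx5 by 1.66 (0.0462), Foxp1, a factor of limb motor neurons, fell by 0.81 (0.0379), and Chat differed by -0.07.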

How the data were processed

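Single-cell RNA-seq (10x Genomics 3′ chemistry) was measured in 6 libraries. UMI counts per gene and barcode were deposited by the authors, made with Cell Ranger 4.0 on mm10 with Ensembl release 93, per the submitters' processing notes and the design text. Cells under 1000 genes or over 10% mitochondrial UMIs were left out, and doublets were not removed. Cells were clustered with scanpy 1.11.5 and leidenalg 0.10.2 (2000 variable genes without the 8 members, 30 components, 15 neighbours, resolution 0.6). A cluster was named where at least 3 fixed markers of 1 type were among its top 100 genes by fold. This naming rule, and the inclusion of pan-neuronal clusters among neuron-like ones, were set after the clusters were seen. Levels within clusters are plain CPM of the library's cells in that cluster.

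Counts were summed per library over kept or neuron-like cells and tested across all genes with edgeR 4.0.16 (R 4.3.3; filterByExpr, TMM, quasi-likelihood test, Benjamini-Hochberg adjustment, threshold 0.05), 6 libraries in 1 fit, after a check on simulated data. SEs are the log2 fold change over the root of F. P-values rest on the spread between the 2 clones of each genotype, pooled over the 3 genotypes and shared in part across genes. Named genes were the 8 members, up to 4 genes of each list with the smallest p, class genes at least 2-fold apart in at least 5 of 6 libraries, and the 3 most correlated genes (sums of at least 50 cells). Class genes compared between clusters in the account of Sst, and Isl1, Slc18a3, Chat and Ddc in Sst cells, were added after the values were seen. Members and lists were chosen with earlier results of these data known. Alternatives were DESeq2 1.42.0, its size factors, no low-count filter, other cell filters, clusterings and neuron definitions, thinning, a replicate block and leaving out each library. Some class genes are not reported here.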

Additional observations from a re-analysis of the deposited data

How the results depend on the processing

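The direction of Sst and of Cartpt in KO against WT over all cells was the same under all 13 alternatives. Both passed under the 7 alternatives other than leaving out 1 library. These 7 include a fit of the WT and KO libraries alone. The genes passing numbered, without the low-count filter, 3390 in KO against WT, 1326 in DeltaSP against WT and 422 in KO against DeltaSP over all cells, and 1194, 137 and 4 in neuron-like cells. With DESeq2 they were 2382, 604 and 51 over all cells and 1296, 298 and 51 in neuron-like cells. Members passing in KO against DeltaSP were 2 over all cells without the filter and 2 with DESeq2, and 1 in neuron-like cells with DESeq2. In KO against WT, neuron-like cells, 105 genes passed with the looser cell filter and 418 in the pan-neuronal clusters alone, with 0 members in either, and DESeq2 called 2 members. In DeltaSP against WT, neuron-like cells, the number was 16 with the 2 genotypes alone, 1 with the looser filter, 2 at resolution 1.2, 8 with cells thinned before clustering and 21 in the pan-neuronal clusters. In KO against DeltaSP the 2 genotypes alone gave 4 genes over all cells and 2 in neuron-like cells, and neurons chosen by pan-neuronal UMIs gave 2. Same-numbered libraries did not deviate together (r from -0.07 to 0.16 over genes). The replicate block gave 22 genes in DeltaSP against WT over all cells, turned Pnoc in KO against DeltaSP to 0.094 and changed no call of a member. Leaving out 1 library each gave 4 to 3207 genes (0 to 2 members) in KO against WT over all cells, 3 to 2371 (0 to 2 members) in neuron-like cells, 1 to 1106 and 2 to 1020 in DeltaSP against WT, and 1 to 4 and 1 to 3 in KO against DeltaSP. Directions turned only for values that were not called. Nts in KO against WT over all cells was 0.0083 with DESeq2 size factors, 0.027 without the filter, 0.019 with DESeq2 and 0.027 with thinned sums, and Npy there passed without the filter (adjusted p = 0.00813). With thinned sums Gal and Calca in KO against DeltaSP were -0.016 and -0.065. In the pan-neuronal clusters alone Cartpt and Calca in KO against WT were 0.11 and -0.039, Sst and Pnoc in DeltaSP against WT 0.13 and -0.00023, and Calca in KO against DeltaSP -0.17. With neurons chosen by pan-neuronal UMIs Calca was -0.36 for KO and -0.47 for DeltaSP, each against WT. In DeltaSP against WT, neuron-like cells, Sst was 0.011 with the looser filter and Cartpt -0.017 at resolution 1.2. Leaving out 1 library also turned uncalled log2 differences, with these ranges. Over all cells Pnoc, Nts and Gal ran from -0.37 to 0.66, -1.43 to 0.73 and -0.32 to 0.65 in KO against WT. Pnoc and Gal ran from -0.49 to 0.67 and -0.12 to 0.46 in DeltaSP against WT. Pnoc, Nts, Gal and Calca ran from -0.42 to 0.56, -0.57 to 1.73, -0.53 to 0.45 and -0.097 to 0.15 in KO against DeltaSP. In neuron-like cells Nts ran from -1.02 to 1.14 in KO against WT. Pnoc, Npy, Nts and Calca ran from -0.19 to 1.12, -1.11 to 0.64, -1.57 to 0.12 and -0.29 to 0.83 in DeltaSP against WT, and Nts, Gal and Calca from -0.54 to 2.01, -0.34 to 0.73 and -0.041 to 1.33 in KO against DeltaSP. Where an arm kept 1 library, it was assumed to vary like the other groups. The cause of these changes was not tested. Depth limits Tac1, Nts and Npy, with 44, 98 and 384 UMIs in all.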

Other observations

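Among 49 other peptide precursors some had nearly all UMIs in neuron-like cells and some did not. Uts2b, which encodes a urotensin-related peptide, had 8426 UMIs, 96.7% of them in neuron-like cells, and was highest in the pan-neuronal cluster 7 at 254 ± 60.4 CPM (SD, n = 5), as Sst was. Over all cells it was at 41.4 and 61.1 CPM in WT, 40.8 and 43.5 CPM in DeltaSP and 49.1 and 28.4 CPM in KO (log2 difference of KO against WT -0.40, edgeR, adjusted p = 0.368). Adcyap1, which encodes PACAP, a peptide of autonomic neurons, had 562 UMIs and was highest in the visceral motor neuron-like cluster 12 at 63.7 ± 20 CPM (n = 5), as Gal was. Sct was highest in the motor neuron-like cluster 4 at 44.2 ± 16.0 CPM (n = 5), with up to 183 UMIs in 1 cell. Pomc, the precursor of ACTH and beta-endorphin, had 1680 UMIs in kept cells but 23 cells with at least 3, of which the highest held 144. Nucb2, the precursor of nesfatin, had 49.2% of 3278 UMIs in neuron-like and 28.6% in progenitor-like cells, Pomc 41.5% and 21.3%, and Nmb, the precursor of neuromedin B, 28.3% and 38.4%.

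Among the processing genes, Scg2, a granin of dense core vesicles, had 98.5% of its 6699 UMIs in neuron-like cells and was highest in cluster 7 at 198 ± 19.8 CPM (n = 5). Cpm, a membrane carboxypeptidase, had 82.8% of its 3271 UMIs in progenitor-like cells and was highest in the p3 or floor plate-like cluster 3 at 168 ± 65.9 CPM (n = 6), as Calca was. The 11 markers of endocrine cells summed to 452 to 732 CPM in the neuron-like cells of the 6 libraries, with Ins2, Gcg and Rfx6 at 0 UMIs. This list includes Isl1 and Chga, which were mostly neuronal here, so the sum is not specific to endocrine cells. Neuron-like cells held 74.0% of the 48931 Isl1 UMIs and 78.9% of the 9461 Chga UMIs. Each value here is a description without a test.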
